A study of Mus musculus with 38 samples.

Results

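B2 elements are short interspersed elements (SINEs) of rodent genomes, and their contact with the inner nuclear membrane protein LAP2B was measured here in mouse cells that lacked the lamins, the lamin B receptor (LBR) or both. The B2 copies were all transposable element (TE) copies that the deposited tables place in class SINE and family B2, which were 369746 of 3793386 TE copies, or 9.75%, and 24.8% of SINE copies. They fell into 5 subfamilies, B3 with 147220 copies, B3A with 91066, B2_Mm2 with 87172, B2_Mm1t with 25872 and B2_Mm1a with 18416. Contacts were mapped by CUT&RUN, in which an antibody directs a nuclease to cut and release nearby chromatin. LAP2B was profiled in 24 libraries from 4 genotypes in 2 stages, with 3 replicates of 200000 cells in each of the 8 groups. The stages were naive mouse embryonic stem cells (mESCs) in 2i and LIF medium and epiblast-like cells (EpiLCs), the primed stage, collected after 48 h of differentiation. The genotypes were wild-type (WT), LBR knockout (LBRKO), lamin triple knockout (TKO, without any lamin) and the quadruple knockout (QKO) that lacked the lamins and LBR. Lamin B1 (LMNB1) and a secondary antibody alone (IGG, the negative control) were profiled in WT cells of both stages, in 6 libraries each. TKO and WT lines came from littermates, LBRKO was made from the WT line and the QKO was a single clone made from the TKO line with Cas9. The study's karyotypes found trisomy 8 in the TKO line, with loss of Y in a part of the cells, and loss of Y with or without trisomy 6 and 8 in a minority of WT cells. Chromatin reads do not show whether Lbr or the lamin genes were expressed, so the genotype labels were not checked here.

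B2 elements arose from a tRNA gene and carry its internal RNA polymerase III promoter, an A box followed by a B box, near their 5′ end. They encode no protein and were copied into new places by the enzymes of L1 elements, long interspersed elements that do encode them. B2_Mm1a, B2_Mm1t and B2_Mm2 are the younger subfamilies and B3 and B3A the older, more diverged ones. SINEs are dense in gene-rich chromatin of the nuclear interior, and L1 elements are dense in lamina-associated domains (LADs), the chromatin held at the nuclear periphery. LAP2B, encoded by Tmpo, binds lamins and chromatin, LBR binds lamin B and heterochromatin, and both span the inner nuclear membrane.

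1 copy of each subfamily is shown, because the subfamilies differed in their LAP2B values and the promoter boxes mark what kind of element they are. The sequences are from the reference genome mm39 (GRCm39), 5′ to 3′ on the strand of the element, and the capitals mark an A box match (TGGCNNAGNGG) and then a B box match (GTTCNANNC). B2_Mm1a_dup4631 lies at chr4:152241188-152241376, plus strand, between genes. B2_Mm1t_dup16588 lies at chr11:30518390-30518570, plus strand, in an intron of Acyp2 and of Gm12098. B2_Mm2_dup72688 lies at chr15:12765805-12765991, minus strand, between genes. B3A_dup69960 lies at chr13:12175276-12175346, plus strand, in an intron of Gm59696, and B3_dup32908 at chr4:120758214-120758305, minus strand, between genes. The tables give no coordinates, so each copy was placed by its reads, which were equal in all 36 libraries to those of a gene lying in 1 bin of 1 kb. The copies shown were chosen among bins that held 1 A box and B box pair. The stretch was extended from the boxes until the number of other B2 bins aligned fell below 0.25 of its top there. Of the candidates of a subfamily, the copy aligned to the most other B2 bins is shown.
B2_Mm1a_dup4631: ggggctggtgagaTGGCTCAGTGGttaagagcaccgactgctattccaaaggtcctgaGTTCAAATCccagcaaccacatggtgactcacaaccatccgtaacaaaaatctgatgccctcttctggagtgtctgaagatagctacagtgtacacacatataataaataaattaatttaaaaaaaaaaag
B2_Mm1t_dup16588: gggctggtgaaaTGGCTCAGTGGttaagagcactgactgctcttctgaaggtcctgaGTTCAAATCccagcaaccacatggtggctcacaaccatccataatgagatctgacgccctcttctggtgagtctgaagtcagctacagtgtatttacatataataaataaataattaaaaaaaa
B2_Mm2_dup72688: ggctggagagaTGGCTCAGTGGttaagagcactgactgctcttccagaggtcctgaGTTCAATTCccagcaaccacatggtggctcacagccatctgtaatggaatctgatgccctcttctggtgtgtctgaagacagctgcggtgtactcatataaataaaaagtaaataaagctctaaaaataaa
B3A_dup69960: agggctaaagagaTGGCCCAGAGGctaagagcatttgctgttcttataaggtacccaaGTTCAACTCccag
B3_dup32908: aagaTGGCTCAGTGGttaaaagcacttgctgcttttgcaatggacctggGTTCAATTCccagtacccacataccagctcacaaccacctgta

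The aligned stretches of the 3 younger elements ran from 181 to 189 bases and kept the tail rich in A, whereas those of the B3A and B3 elements were 71 and 92 bases long. These lengths depend on the cut in alignment and are not measured lengths of the elements. The B3A copy was the only candidate and aligned to 10 other bins. The boxes were searched on both strands, with the B box 20 to 50 bases after the A box, in 297 placed bins. The B2 copy of each shared its values with no other TE copy. Such a bin can still hold a TE copy that also touches another bin, so a box pair need not lie in the B2 copy. Both boxes in this order were found in 13 of 20 B2_Mm1a bins (65%), 11 of 17 B2_Mm1t bins (64.7%) and 25 of 86 B2_Mm2 bins (29.1%). They were found in 6 of 112 B3 bins (5.36%) and 2 of 62 B3A bins (3.23%), beside 1.84% of all 1 kb bins of the genome. The labels of the subfamilies therefore went with the share of bins that hold both boxes, and the bins of the shown B3 and B3A elements are among the few of their kind that do. In naive mESCs the B2_Mm1a element shown had relative LAP2B values of 0.368, 0.262 and 0.52 in the WT libraries and 2.32, 2.298 and 2.89 in the QKO libraries. The B2_Mm1t element had 1.47, 1.05 and 1.23 in WT and 0.893, 0.685 and 0.86 in QKO. Both sets of groups were apart, in opposite directions, and rested on 4 to 54 reads per LAP2B library for the first element and 1 to 32 for the second. Single B2 copies of a subfamily thus did not all follow its mean.

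The deposited value of a copy is the spike-in-scaled RPKM signal of the 1 kb bins it touches, so a value belongs to the bin and its neighbours as much as to the element. 65.5% of B2 copies shared all of their values with another TE copy, and the 369746 copies held 319932 distinct sets of values. The values were whole multiples of 1 step per library, which gave back whole reads. Summed over the TE copies of a LAP2B library they came to between 37680271 and 107337724. In this sum a read counts once for each copy that touches its bin. The median was 8 to 24 reads per B2 copy, and 28 B2 copies had no read in any library. Replicates were separate samples by their labels, which do not say that they were separate cultures, so p-values measure the spread between these samples only. Values are given on 2 scales. On the spike-in scale they stand as deposited. These are RPKM values, which are divided by the reads of the library before the spike-in factor is applied, so they are not the amount of chromatin released. On the relative scale each was divided by the median of the 1241 TE families of its library, so that 1 is the level of the median family.

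In naive mESCs, LAP2B values of all 5 B2 subfamilies were higher relative to other TE families in each mutant than in WT, although in TKO and QKO they were lower on the spike-in scale. The relative level of B2_Mm1a was 0.762, 0.706 and 0.806 for the WT libraries, 1.17, 1.15 and 1.23 for LBRKO, 1.13, 1.12 and 1.12 for TKO and 2.00, 1.69 and 1.89 for QKO. B2_Mm1a therefore lay below the median TE family in WT and above it in every mutant library, and the QKO libraries stood clear of the others. The level of B3A, the subfamily with the smallest share of bins that hold both boxes, was 0.844, 0.819 and 0.866 for WT, 1.06, 1.05 and 1.08 for LBRKO, 0.978, 0.975 and 0.97 for TKO and 1.31, 1.203 and 1.26 for QKO. B3A thus started slightly above B2_Mm1a in WT and ended below it in all 3 mutants. The plot of subfamily levels by library shows the same spread for the other 3 subfamilies. IGG in naive WT, a level set across tables, had means of 1.15 for B2_Mm1a and 0.974 for B3A. The means of TKO were near these, at 1.12 and 0.974. Those of LBRKO were 1.18 and 1.06, and those of QKO stood above the control at 1.86 and 1.26.

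**Figure D1:**
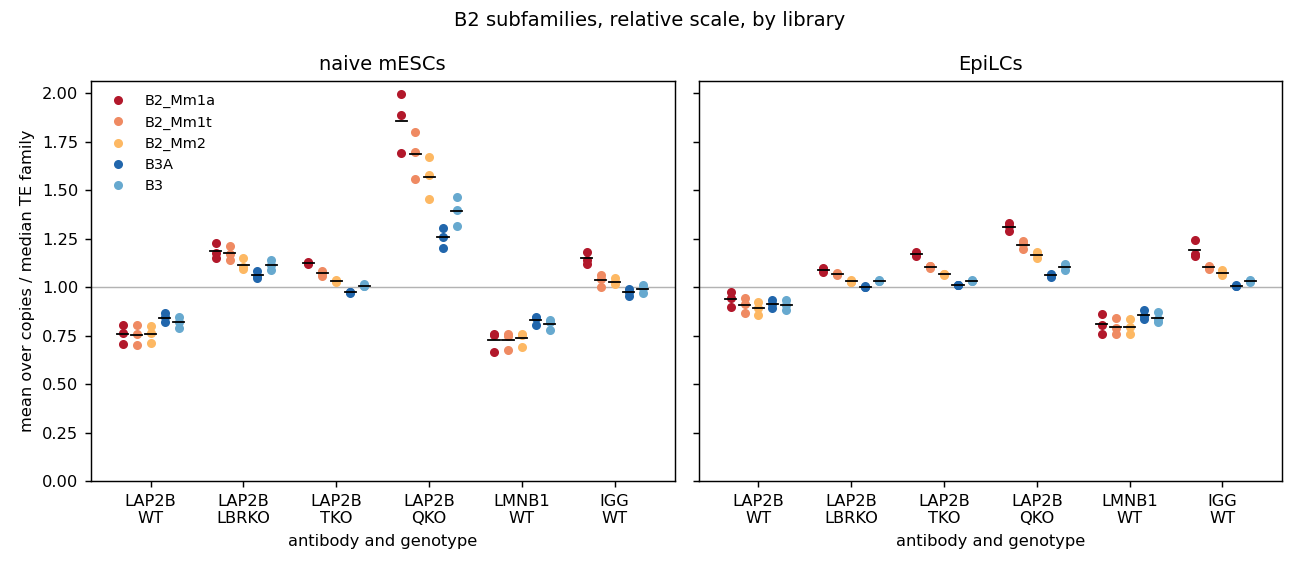
Mean over the copies of each B2 subfamily divided by the library's median TE family (relative scale, y axis) for each antibody and genotype (x axis), with 1 point per library and a bar at the mean of 3 libraries, in naive mESCs (left) and EpiLCs (right). In naive mESCs all WT LAP2B and LMNB1 points lie below 1 and all QKO points above 1, with B2_Mm1a highest at 1.86 and B3A lowest at 1.26, an order that is relative only, since on the spike-in scale all 5 subfamilies were lower in QKO. Naive IGG means were 1.15 for B2_Mm1a and 0.974 for B3A, near those of TKO.

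The changes were tested with limma on log2(relative value + 0.1), with p-values adjusted over all 1241 families. In naive QKO against WT the log2 change was 1.19 ± 0.045 (SE) for B2_Mm1a (adjusted p = 2.62e-13), 1.06 ± 0.042 for B2_Mm1t, 0.96 ± 0.038 for B2_Mm2, 0.70 ± 0.029 for B3 and 0.52 ± 0.023 for B3A (adjusted p = 4.16e-13). All 5 subfamilies were called higher, with 37.8% of all families called higher and 79.2% called in either direction, and they ranked 6, 9, 20, 44 and 73 of 1241 from the largest rise. In naive LBRKO the 5 changes ran from 0.30 (B3A) to 0.58 (B2_Mm1a), all called (largest adjusted p = 1.57e-09), where 30.5% of families were called higher. In naive TKO they ran from 0.19 (B3A) to 0.51 (B2_Mm1a), all called (largest adjusted p = 4.45e-06), where 32.6% of families were called higher. Between QKO and TKO, which differ in LBR, they ran from 0.34 (B3A) to 0.67 (B2_Mm1a), all called with adjusted p = 1.04e-09, where 30.1% were called higher. In each of these comparisons B2_Mm1a had the largest change of the B2 subfamilies and B3A the smallest. The 3 mutants were compared with the same WT libraries. Dividing by the mean of all TE copies in place of the median family moved the naive QKO change of the median family from -0.019 to -0.27 and the median of the 5 B2 subfamilies from 0.96 to 0.71, all still called.

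The order of the subfamilies was also measured within each library, as the log2 ratio of the mean B2_Mm1a to the mean B3A copy, which no scaling of the library can change. This ratio was -0.16 ± 0.055 (SD, n = 3) for naive WT, 0.16 ± 0.023 for LBRKO, 0.21 ± 0.0090 for TKO and 0.56 ± 0.062 for QKO, with no overlap between WT and any mutant. An exact permutation test of the spread between the means of the 4 genotypes, which has no direction, gave p = 6.49e-05, the smallest that the 15400 assignments of 12 libraries can give. Each mutant differed from WT with exact p = 0.1, the smallest possible with 3 against 3. LMNB1 in WT gave -0.20 ± 0.069 and IGG 0.24 ± 0.065, so WT LAP2B lay near LMNB1, and LBRKO and TKO near IGG. In EpiLCs the ratio was 0.040 ± 0.028 for WT, 0.12 ± 0.0094 for LBRKO, 0.21 ± 0.012 for TKO and 0.31 ± 0.0089 for QKO (exact permutation p = 6.49e-05). The measure was added after the values of the subfamilies had been seen. The alignment kept 1 primary position for a read, so reads of near-identical young copies may be split among them, and its part in the ratio was not tested.

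On the spike-in scale the mean B2 copy was lowest in the lamin mutants. The mean deposited value over all B2 copies was 0.574 ± 0.122 (SD, n = 3) for naive WT, 0.696 ± 0.106 for LBRKO, 0.329 ± 0.0839 for TKO and 0.257 ± 0.0312 for QKO, beside 0.117 ± 0.0250 for IGG in naive WT, a level set across tables. The TKO and QKO libraries lay below all WT libraries, and LBRKO overlapped WT. An exact permutation test of log2 values over the 4 genotypes gave p = 0.00117, and QKO was 0.452-fold of WT (exact p = 0.1). With the spike-in factor applied to the recovered reads in place of RPKM, the log2 means were -1.39 ± 0.187 (SD, n = 3) for WT, -0.86 ± 0.431 for LBRKO, -2.47 ± 0.154 for TKO and -2.34 ± 0.267 for QKO. Here the size of a library was taken as its reads summed over TE copies, not its total of distinct reads. TKO and QKO again lay below WT, but the order of QKO and TKO turned, and the difference of LBRKO from WT was 0.53 in place of 0.29. A smaller share of cells with a contact and fewer contacts per cell cannot be told apart in such libraries. In limma fits on the spike-in scale, in both stages, the spike-in factor of a library moves all of its families together. The families are then not independent, and the p-values and calls of these fits can be stronger than 3 libraries per group allow. The exact p = 0.1 above is the smallest that 3 against 3 libraries can give. By limma, all 5 subfamilies were called lower in naive QKO, from -0.62 ± 0.211 (SE) for B2_Mm1a to -1.24 ± 0.210 for B3A, where 99.7% of families were called lower and the median family fell by 1.75 on the log2 scale. They were also called lower in naive TKO, from -0.52 for B2_Mm1a to -0.84 for B3A, where 99.2% were called lower, but for B2_Mm1a the TKO and WT libraries overlapped. The call of B2_Mm1a was lost without WT replicate 2, TKO replicate 1 or TKO replicate 3, and that of B2_Mm1t without TKO replicate 1, which left 3 subfamilies called, as did a fit of the WT and TKO groups alone. The B2 subfamilies were among the families that fell least in QKO, with ranks of 6 (B2_Mm1a), 9, 18, 47 and 70 (B3A) of 1241. In naive LBRKO none of the 5 was called (0.15 to 0.43, limma adjusted p = 0.184 to 0.761), with 2 at an unadjusted p under 0.05 and none by edgeR, where 0.403% of families were called higher. For the mean B2 copy, LBRKO against WT had an exact permutation p = 0.3. Between naive QKO and TKO the spike-in changes ran from -0.10 (B2_Mm1a) to -0.40 (B3A), and limma called none of the 5 (adjusted p = 0.0601 to 0.622, none at an unadjusted p under 0.05), where 94.6% of families were called lower. On the reads, edgeR called 1 of the 5, where it called 95% of families, and limma called 1 without TKO replicate 1.

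In EpiLCs the relative changes had the same direction and were smaller. The paper did not use LAP2B to mark LADs in mutant EpiLCs, because in WT EpiLCs its signal also lay outside LADs. B2_Mm1a stood at 0.896, 0.976 and 0.942 for WT, 1.08, 1.09 and 1.10 for LBRKO, 1.18, 1.16 and 1.17 for TKO and 1.31, 1.33 and 1.29 for QKO, with no overlap between neighbouring genotypes in that order. IGG in WT EpiLCs, a level set across tables, had means of 1.19 for B2_Mm1a and 1.01 for B3A. TKO had means of 1.17 and 1.01, LBRKO of 1.09 and 1.00 and QKO of 1.31 and 1.06. The log2 change of QKO against WT ran from 0.20 (B3A) to 0.44 (B2_Mm1a), all 5 called (largest adjusted p = 2.52e-06), where 21.1% of families were called higher. LBRKO ran from 0.12 to 0.21, all called, where 18.3% were called higher, and TKO from 0.13 to 0.29, all called, where 14% were called higher. With the median over copies as the family's value, only B2_Mm1a was called in TKO. The changes that lost their call were then 0.28 (B2_Mm1t), 0.27 (B2_Mm2), 0.13 (B3A) and 0.15 (B3), within the range above. Between QKO and TKO the changes ran from 0.063 to 0.15 and none was called (limma adjusted p = 0.159 to 0.213), where 0% of families were called by limma or edgeR, though all 5 had an unadjusted p under 0.05. All 5 were called when only those groups entered the limma fit, but the share of all families called in that fit was not counted. On the spike-in scale, QKO was lower than WT for all 5 subfamilies, from -0.62 (B2_Mm1a) to -0.84 (B3A), where 99.8% of families were called lower. TKO (-0.14 to -0.29) and LBRKO (0.11 to 0.20) were called for none by limma or edgeR, nor had any an unadjusted p under 0.05, where 11.6% of families were called lower in TKO and 0.0806% higher in LBRKO, but 2 subfamilies were called in TKO without TKO replicate 1 and 1 without WT replicate 2. QKO was also called lower than TKO for all 5, from -0.48 (B2_Mm1a) to -0.55 (B3A), where 98.8% of families were called lower. In a fit of the QKO and TKO groups alone only B3A and B3 were called, and 0 were called without TKO replicate 1 and 3 without QKO replicate 2 or 3. The mean B2 copy had a deposited value of 0.585 ± 0.108 (SD, n = 3) for WT EpiLCs, 0.649 ± 0.0316 for LBRKO, 0.494 ± 0.144 for TKO and 0.321 ± 0.0151 for QKO (exact permutation p = 0.0110 over the 4 genotypes). IGG in EpiLCs varied widely, with log2 values of -2.67, -2.49 and -1.28, and 1 of these control libraries lay above every QKO library, at -1.69 to -1.57. With the spike-in factor on the recovered reads, the log2 differences from WT in EpiLCs were 0.46 in place of 0.17 for LBRKO, -0.084 in place of -0.26 for TKO and -0.46 in place of -0.85 for QKO, which brought QKO and TKO closer together.

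The difference between the stages was tested as an interaction in limma. For QKO the change in EpiLCs minus that in naive mESCs was -0.75 ± 0.063 (SE) for B2_Mm1a and -0.33 ± 0.032 for B3A, with all 5 subfamilies called (largest adjusted p = 3.27e-07), where 29.3% of families were called lower. For LBRKO all 5 were called, from -0.18 (B3A) to -0.39 (B2_Mm1a), each with adjusted p = 0.00139, where 12.3% were called lower. For TKO the younger 3 were called, from -0.16 (B2_Mm2, adjusted p = 0.0414) to -0.22 (B2_Mm1a, adjusted p = 0.022), where 16.1% were called lower, and B3 (-0.098, adjusted p = 0.101) and B3A (-0.053, adjusted p = 0.300) were not. With the median over copies as the family's value, 0 subfamilies were called for LBRKO and for TKO, and for QKO B3A lost its call, at -0.12. Under this setting B2_Mm1a stayed at -0.39 for LBRKO and -0.23 for TKO without a call, whereas B3A for LBRKO shrank to -0.073. This TKO difference was also called for 0 without naive WT replicate 2, and for 1 without naive TKO replicate 1 or 3, EpiLC WT replicate 2 or 3, or EpiLC TKO replicate 2 or 3. WT itself changed between the stages. B2_Mm1a in LAP2B was higher in WT EpiLCs than in naive WT by 0.28 ± 0.045, B3A by 0.10 ± 0.023, and all 5 were called (largest adjusted p = 0.00514), where 14.2% of families were called higher, with 2 called on medians over copies and 1 when only the WT groups entered the fit. In LMNB1 (0.041 to 0.14) and IGG (0.044 to 0.083) none of the 5 was called by limma, with adjusted p of 0.376 or more and 0.263 or more, where 0.0806% and 0% of families were called higher. At an unadjusted p under 0.05 there were 0 in LMNB1 and 2 in IGG, and edgeR called none in either.

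Other SINE families moved in the same direction as B2. In naive QKO, B1 elements, which arose from the 7SL RNA and are named Alu in the tables, were called higher in 15 of 15 families with a median log2 change of 0.91, ID elements in 4 of 4 (0.71) and B4 elements in 4 of 4 (0.56). Of 149 L1 families 41 were called higher and 92 lower (median -0.25), and of 285 ERVK families, a group of retroviral elements, 99 were called higher and 123 lower (median -0.045). The B2 median of 0.96 thus lay near that of B1. Averaged over copies, however, B2 lagged behind B1. The log2 ratio of the mean B2 copy to the mean B1 copy was 0.0029 ± 0.011 (SD, n = 3) for naive WT, -0.063 ± 0.013 for LBRKO, -0.076 ± 0.0037 for TKO and -0.15 ± 0.026 for QKO, without overlap between WT and the mutants (exact permutation p = 6.49e-05). With each subfamily of B2 and of B1 weighted equally, the ratio ran from -0.028 in WT to -0.051 in LBRKO and in QKO, and the exact permutation p over genotypes was 0.128. In EpiLCs the ratio ran from -0.024 (QKO) to 0.017 (WT), with p = 0.0777 by the exact permutation test, and leaving out 1 library gave p from 0.0418 to 0.233. Taken over all TE copies, the mean B2 copy stood at log2 -0.36 ± 0.038 for naive WT, 0.043 ± 0.032 for LBRKO, -0.14 ± 0.0044 for TKO and 0.21 ± 0.042 for QKO (exact permutation p = 6.49e-05). LMNB1 in naive WT gave -0.38 ± 0.041 and IGG -0.13 ± 0.030, so the mean B2 copy was under-represented in WT LAP2B to the degree it was in LMNB1, and more than in the control.

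**Figure D2:**
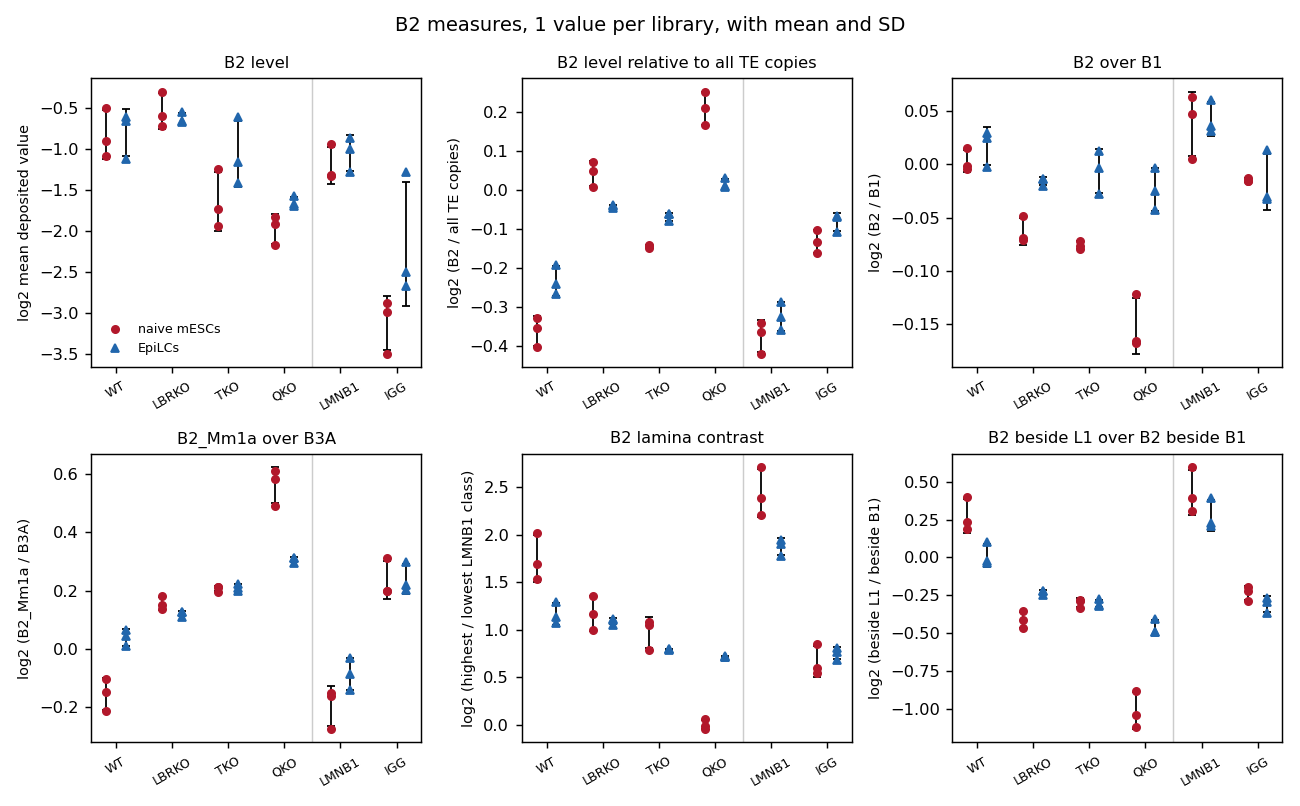
The measures with 1 value per library (y axes, on the log2 scale) for LAP2B of the 4 genotypes and for LMNB1 and IGG of WT (x axis), with circles for naive mESCs, triangles for EpiLCs and bars for mean ± SD of 3 libraries. The naive lamina contrast goes from 1.75 in WT to 0.0056 in QKO while the ratio of B2_Mm1a to B3A goes from -0.16 to 0.56, and the spike-in level falls from -0.82 to -1.97.

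In naive mESCs the LAP2B level of B2 copies went with their lamin B1 level in WT, and the highest to lowest ratio was smaller in each mutant. B2 copies were ordered by their mean WT LMNB1 value of the same stage and cut into 4 classes of equal number, and the lamina contrast is the log2 ratio of mean LAP2B in the highest class to that in the lowest. In naive mESCs it was 1.75 ± 0.246 (SD, n = 3) for WT, 1.17 ± 0.181 for LBRKO, 0.97 ± 0.166 for TKO and 0.0056 ± 0.0511 for QKO. The WT libraries (1.53, 1.70 and 2.02) lay above all LBRKO libraries (0.999, 1.16 and 1.36), and the QKO libraries (-0.039, -0.0061 and 0.062) below all TKO libraries (0.784 to 1.08). The exact permutation test over genotypes gave p = 0.000195, and each mutant against WT p = 0.1. The contrast was 2.44 ± 0.253 in LMNB1, which defined the classes, and 0.67 ± 0.161 in IGG. Values are sums over the bins a copy touches, so what copies share in every library, IGG included, enters these contrasts. With classes by LMNB1 over IGG, where IGG by construction weighs against a high class, the naive contrast was -0.55 ± 0.0649 for IGG, 1.17 ± 0.289 for WT, 0.23 ± 0.211 for LBRKO, 0.089 ± 0.174 for TKO and -1.29 ± 0.148 for QKO. With classes from EpiLC LMNB1 it was 0.49 ± 0.0202 in QKO, below 0.89 ± 0.118 in IGG. The order of WT above QKO thus held under each set of classes, whereas the sign of the QKO value itself depended on the set. In EpiLCs it was 1.17 ± 0.112 in WT, 1.09 ± 0.0345 in LBRKO, 0.79 ± 0.0087 in TKO, 0.72 ± 0.0102 in QKO and 0.76 ± 0.0642 in IGG (exact permutation p = 0.000649). LBRKO overlapped WT there, and the TKO and QKO libraries lay within the range of IGG. With classes by LMNB1 over IGG the EpiLC values were 0.25 ± 0.180 in WT, 0.0042 ± 0.0497 in LBRKO, -0.43 ± 0.0373 in TKO, -0.65 ± 0.0450 in QKO and -0.87 ± 0.359 in IGG.

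Over longer stretches the contrast of naive QKO was below 0. The B2 copies given a chromosome (366802, or 99.2%) were joined along the table order into 1825 windows of 200 neighbouring copies. In the lowest LMNB1 class of windows, the relative LAP2B value was 0.484, 0.386 and 0.542 for naive WT, 0.766, 0.884 and 0.87 for LBRKO, 0.866, 0.935 and 0.85 for TKO and 2.13, 1.77 and 1.99 for QKO. The windows with least lamin B1 in WT thus had more LAP2B signal per TE family in QKO than the windows richest in lamin B1, which stood at 0.995, 0.985 and 0.978 in QKO and 1.22, 1.28 and 1.21 in WT. The lamina contrast over windows was 1.41 ± 0.289 (SD, n = 3) in naive WT, 0.56 ± 0.194 in LBRKO, 0.42 ± 0.159 in TKO, -0.98 ± 0.130 in QKO and 0.13 ± 0.171 in IGG. In IGG the lowest class stood at 0.891 to 1.02 and the highest at 1.01 to 1.11, so the QKO level of the lowest class was above the control's. Across the 1825 windows, Spearman's rho between LAP2B and WT LMNB1 was 0.959 to 0.991 in naive WT libraries, 0.181 to 0.370 in LBRKO, 0.151 to 0.453 in TKO and -0.458 to -0.444 in QKO. With WT IGG it was -0.017 to 0.142, 0.453 to 0.631, 0.583 to 0.790 and 0.709 to 0.739 in the same order. In EpiLCs rho with LMNB1 was 0.721 to 0.935 in WT, 0.280 to 0.327 in LBRKO, -0.218 to -0.202 in TKO and -0.267 to -0.262 in QKO, and with IGG it reached 0.950 to 0.958 in TKO and 0.920 to 0.934 in QKO. Neighbouring windows are not independent, so these are descriptions. The plot along chromosome 12 shows stretches of low lamin B1 where QKO stood far above WT, and others where it did so less, as in window 14 with 0.455, 0.366 and 0.529 in WT and 0.828, 0.772 and 0.822 in QKO.

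**Figure D3:**
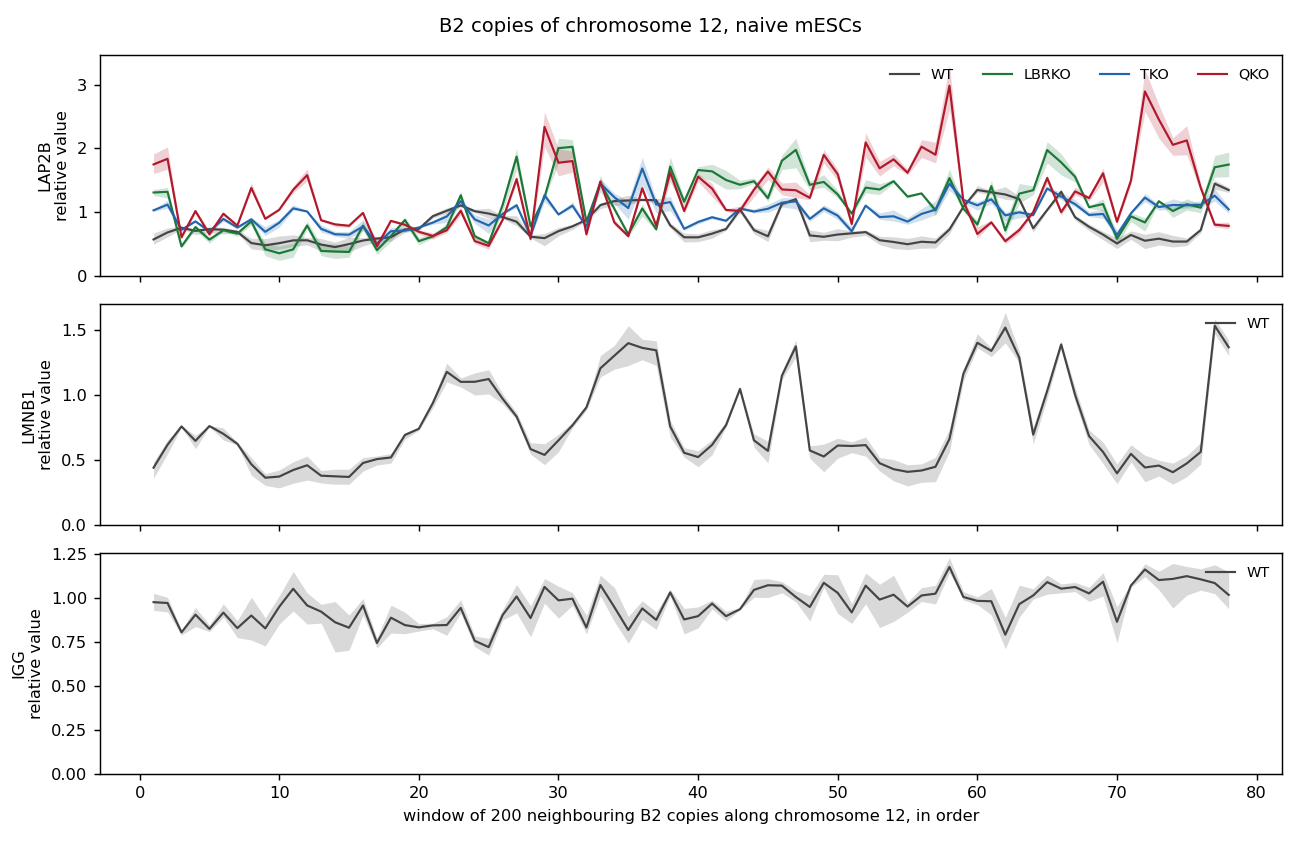
Relative value (y axes) of 78 windows of 200 neighbouring B2 copies along chromosome 12 in table order (x axis), in naive mESCs, for LAP2B of the 4 genotypes (top), WT LMNB1 (middle) and WT IGG (bottom), with lines for the mean and shading from the lowest to the highest of 3 libraries. The WT LAP2B line follows LMNB1, and the highest QKO values are in windows where both are low, though not every such window is high; the first window has 0.545, 0.495 and 0.671 in WT and 1.92, 1.61 and 1.72 in QKO.

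The younger subfamilies stood higher in QKO within each class as well. In the lowest LMNB1 class, the naive log2 ratio of QKO to WT group means was 1.98 for B2_Mm1a, 1.90 for B2_Mm1t, 1.84 for B2_Mm2, 1.71 for B3 and 1.62 for B3A. In the highest class it was 0.64, 0.38, 0.23, -0.061 and -0.23 in the same order. B2_Mm1a copies of the highest class stood at 1.42, 1.43 and 1.45 in WT and 2.36, 2.01 and 2.35 in QKO, whereas B3A copies of that class stood at 1.39, 1.44 and 1.38 in WT and 1.22, 1.18 and 1.18 in QKO. The groups did not overlap in either case, and they moved in opposite directions on the relative scale. B2_Mm1a copies were somewhat more often in the lowest class (27.9%) than B3A copies (21.99%), and less often in the highest (20.0% against 28.2%). In LBRKO the ratio ran from 0.86 (B2_Mm1a, class 2) to 0.051 (B3A, highest class), with 0.81 for B2_Mm1a in the lowest class, and in TKO from 0.88 (B2_Mm1a, lowest class) to -0.095 (B3A, highest class). In EpiLCs the QKO ratio was 0.61 for B2_Mm1a and 0.50 for B3A in the lowest class and 0.37 and -0.019 in the highest.

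**Figure D4:**
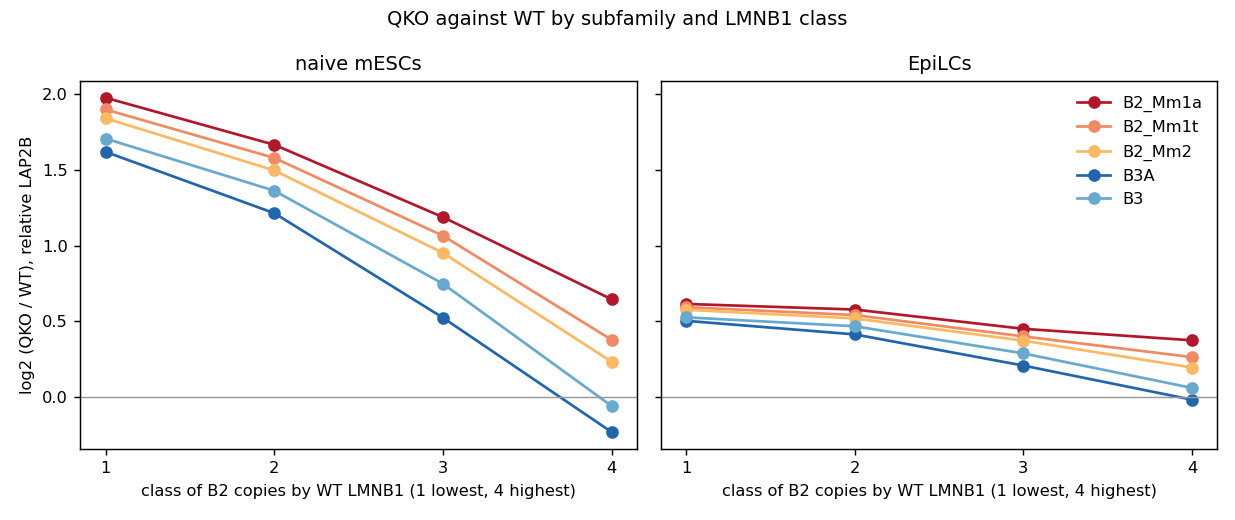
Log2 ratio of mean relative LAP2B in QKO to that in WT (y axis) for each B2 subfamily in the 4 classes of B2 copies by WT LMNB1 (x axis, 1 lowest to 4 highest), in naive mESCs (left) and EpiLCs (right), with 1 point per subfamily and class. The naive lines fall from between 1.62 and 1.98 in class 1 to between -0.23 and 0.64 in class 4, with B2_Mm1a on top in each class, and these are relative values, since mean B2 on the spike-in scale was lower in QKO.

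The TE copies that share a bin with a B2 copy gave the same division without LMNB1. 91088 B2 copies had exactly the values of a B1 copy and of no L1 copy, and 32242 had those of an L1 copy and of no B1 copy. In naive WT the copies beside L1 stood at 0.733, 0.738 and 0.755 and those beside B1 lower, at 0.624, 0.56 and 0.662. In QKO the copies beside L1 stood at 0.846, 0.836 and 0.832 and those beside B1 much higher, at 1.84, 1.54 and 1.72. The log2 ratio of the first set to the second was 0.27 ± 0.110 (SD, n = 3) for WT, -0.41 ± 0.054 for LBRKO, -0.30 ± 0.029 for TKO and -1.01 ± 0.122 for QKO (exact permutation p = 6.49e-05), with LMNB1 at 0.43 ± 0.1497 and IGG at -0.24 ± 0.0466. WT alone was on the side of LMNB1, and every mutant library lay below WT and below the control's mean. In EpiLCs it was 0.012 ± 0.0756 for WT, -0.23 ± 0.0158 for LBRKO, -0.30 ± 0.0237 for TKO and -0.46 ± 0.0497 for QKO (exact permutation p = 6.49e-05), with IGG at -0.31 ± 0.0529. This ratio, too, was chosen after the data had been seen.

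Copies were also tested one by one with limma, over the 3414047 TE copies above a low level, of which 342091 were B2 copies. In naive QKO 139845 B2 copies (40.9%) were called higher on the relative scale, where 26% of all copies were, and 35324 (10.3%) were called lower, where 19.5% were. In naive LBRKO 75537 were called higher (22.1%, against 14.6% of all copies) and 14861 lower (4.34%, against 10%). In naive TKO 36818 were called higher (10.8%, against 7.24%) and 4988 lower (1.46%, against 2.32%). In this fit B2 copies were called higher more often than TE copies as a whole and lower less often in all 3 naive mutants, a comparison of shares with no test. The QKO counts moved by less than 1.5 times in every fit without 1 library, whereas other counts did not hold so well. Without WT replicate 2 the LBRKO count of higher copies was 47391 and the TKO count 15828. The LBRKO count of lower copies was 7642 without WT replicate 2, 9336 without LBRKO replicate 2 and 8757 without LBRKO replicate 3. The TKO count of lower copies was 3195, 1635 and 3140 without WT replicates 1, 2 and 3, and 2777 without TKO replicate 2. It was 7600 with the mean of all TE copies as the divisor. The share of all TE copies called was not counted in these other fits. They do not show whether B2 copies still differed from TE copies as a whole. On the spike-in scale, where the low level left another set of 340866 B2 copies among 3414046 TE copies, 174249 B2 copies were called lower in naive QKO (51.1%, against 67.8% of all copies) and 14498 higher (4.25%, against 2.52%), or 8390 higher without QKO replicate 1.

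The share of copies called followed lamin B1 in WT, in B2 copies as in TE copies as a whole. In naive QKO on the relative scale, 69.9% of the tested B2 copies of the lowest LMNB1 class were called higher, then 53.5%, 30.6% and 13.7% in the next classes. Of all TE copies between the same LMNB1 limits, 62.2%, 42.8%, 20.5% and 6.92% were called higher. B2 copies called lower made up 0.103%, 1.09%, 8.00% and 30.04% of the classes in the same order, against 0.193%, 1.98%, 12.3% and 40.2% of all TE copies. The B2 share was thus the higher of the pair for rises and the lower for falls in each class, a comparison of shares with no test. By subfamily, 54.2% of B2_Mm1a copies were called higher, 51.1% of B2_Mm1t, 47.1% of B2_Mm2, 38.7% of B3 and 32.5% of B3A. With 1 copy kept for each distinct set of values, 38.9% of B2 copies were called higher, against 21.2% of all TE copies, and 11.1% lower, against 23.2%. The levels that decide whether a copy could be tested were means over all LAP2B libraries. A copy low in 1 group could therefore pass through a group where it was high, and the shares called are of copies chosen in this way.

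In EpiLCs fewer copies passed. In QKO 13321 B2 copies were called higher (3.89%, against 2.5% of all copies) and 1457 lower (0.426%, against 1.01%). Those higher numbered 2864, 3181 and 6147 without QKO replicates 1, 2 and 3, and 3829 and 6788 without WT replicates 1 and 3. Those lower numbered 308, 404 and 685 without QKO replicates 1, 2 and 3, and 234 and 627 without WT replicates 1 and 3. A pseudocount of 0.1 of the median copy gave 8123 higher and 666 lower in QKO. LBRKO called 3.4% of B2 copies, against 3.29% of all copies, and TKO 0.163%, against 0.176%, which are shares near the background. Leaving out 1 library moved these EpiLC counts to between 4440 and 9783 copies in LBRKO and between 75 and 1234 in TKO. The share of all TE copies called was not counted in these other EpiLC fits.

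The copies with the largest rises in QKO lay among neighbours that were also higher there. The largest naive rise was that of B2_Mm1t_dup14885, at 0.368, 0.458 and 1.23 for WT, 0.529, 0.979 and 0.924 for LBRKO, 7.62, 8.65 and 7.82 for TKO and 43.8, 27.5 and 45.2 for QKO (log2 change 5.18 ± 0.28, limma adjusted p = 3.87e-27). It rested on 7 to 19 reads in a WT library and 562 to 736 in a QKO library. IGG stood at 2.02, 1.68 and 1.83 there, and the medians over the 20 neighbouring TE copies were 1.01 in WT and 33.4 in QKO. In the table it stands after the last placed bin of chromosome X and before the first of Y, so its chromosome was not assigned. The next, B2_Mm1t_dup15045, stands between the last placed bin of Y and the first of chromosome 10, and went from 0.368, 1.11 and 0.974 in WT to 48.5, 28.6 and 46.3 in QKO (log2 change 5.08 ± 0.28, limma adjusted p = 5.19e-26). Both copies were high in TKO and QKO, which share the TKO origin, and not in LBRKO. IGG was profiled in WT alone, so at these copies a change in DNA copy number and LAP2B contact cannot be told apart. In EpiLCs B2_Mm1t_dup15045 rose most, from 1.67, 0.512 and 1.40 in WT to 16.2, 11.2 and 10.02 in QKO (3.04 ± 0.28, limma adjusted p = 4.64e-13). B2_Mm1a_dup10544, beside B2_Mm1t_dup14885 in the table, rose from 0.371, 0.372 and 0.441 to 5.79, 5.57 and 3.75 (2.71 ± 0.27, limma adjusted p = 2.47e-11).

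Of the 4 copies that fell most in QKO, 3 were among the B2 copies richest in lamin B1. A large fall needs a high LAP2B value in WT, which went with LMNB1, so the choice of copies favours this. In naive mESCs B3A_dup27948, which stands between placed bins at chr5:132830001 and chr5:134234000 (mm39), fell from 7.05, 4.97 and 6.17 in WT to 0.357, 0.489 and 0.626 in QKO (log2 change -2.82 ± 0.29, limma adjusted p = 9.45e-13). LBRKO (2.87, 4.404 and 5.23) and TKO (2.56, 1.80 and 2.49) lay between them, and its WT LMNB1 value was above that of 99.9% of B2 copies. B3_dup105670, between chr11:109443001 and chr11:114556000, fell from 4.47, 4.12 and 4.74 to 0.595, 0.489 and 0.313 (-2.45 ± 0.28, limma adjusted p = 2.13e-11) and shared its values with another B3 copy and an RSINE1 copy, an element of the B4 family. Its WT LMNB1 value was above that of 99.7% of B2 copies. In EpiLCs B2_Mm1t_dup13184, between chr9:84070001 and chr9:84532000, fell from 2.79, 2.89 and 3.38 in WT to 0.273, 0.253 and 0.328 in QKO, and TKO (0.146, 0.149 and 0.485) stood as low while LBRKO (3.89, 3.48 and 2.66) stood with WT. Its WT LMNB1 value was above that of 99.8% of B2 copies. B3A_dup25596, between chr5:93221001 and chr5:96016000, went from 2.48, 1.12 and 1.62 to 0.109, 0 and 0.187, on 0 to 4 reads in a QKO library (limma adjusted p = 6.97e-05), and its WT LMNB1 value was above that of 82.9% of B2 copies. IGG was also above the median family at 3 of these 4 copies, with 2.35, 3.49 and 2.75 at B3A_dup27948, 1.01, 1.33 and 1.37 at B3_dup105670 and 1.85, 1.80 and 1.64 at B2_Mm1t_dup13184, and it stood at 0.923, 0.40 and 0.961 at B3A_dup25596. The medians over the 20 neighbouring TE copies were also lower in QKO at all 4, and went from 1.34 in WT to 0.505 in QKO at B3A_dup27948, from 1.28 to 0.466 at B3_dup105670, from 1.24 to 0.725 at B2_Mm1t_dup13184 and from 0.765 to 0.249 at B3A_dup25596.

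B2 copies of different chromosomes differed in their LAP2B levels between genotypes. Each chromosome's mean B2 copy was divided by the mean over all B2 copies of the library, which removes the scale of the library. These are values with no test. Chromosome 11 had the highest ratio of QKO to WT in naive mESCs, 0.53 on the log2 scale, with 0.91, 0.857 and 0.923 in WT and 1.32, 1.26 and 1.31 in QKO. Chromosomes 17 (0.45), 4 (0.40), 19 (0.39) and 15 (0.36) followed, and Y (-1.31), X (-0.46), 6 (-0.45), 14 (-0.45) and 1 (-0.40) had the lowest ratios. In EpiLC QKO chromosome 11 again stood highest (0.23) and chromosome 6 lowest (-0.32). LBRKO differed from the lamin mutants at chromosome 6, which stood at 1.53, 1.51 and 1.51 in naive LBRKO and 1.196, 1.23 and 1.18 in WT (log2 ratio 0.34, and 0.35 in EpiLCs), and in TKO and QKO was lower than in WT. B2 copies of Y stood at 0.23, 0.241 and 0.209 in naive LBRKO and 0.409, 0.431 and 0.449 in WT (log2 ratio -0.92). Chromosome 8 stood at 1.41 to 1.51 of the mean B2 copy in every naive LAP2B library, WT included. In naive WT it stood at 1.45, 1.49 and 1.48 in IGG and at 1.45, 1.47 and 1.45 in LMNB1. Its high level in WT was therefore not particular to LAP2B. Trisomy 8 and loss of Y are in the study's karyotype of TKO, and loss of Y and trisomy 6 and 8 in that of a minority of WT cells, and a karyotype of LBRKO is not given in the sources used here. IGG was profiled in WT alone, so for the mutants chromosome number and LAP2B contact cannot be told apart in these values. Leaving out chromosomes 6, 8, X and Y changed neither the direction nor the call of the genotype differences in the B2 level relative to all TE copies, the ratio to B1, the lamina contrast and the ratio of B2_Mm1a to B3A.

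**Figure D5:**
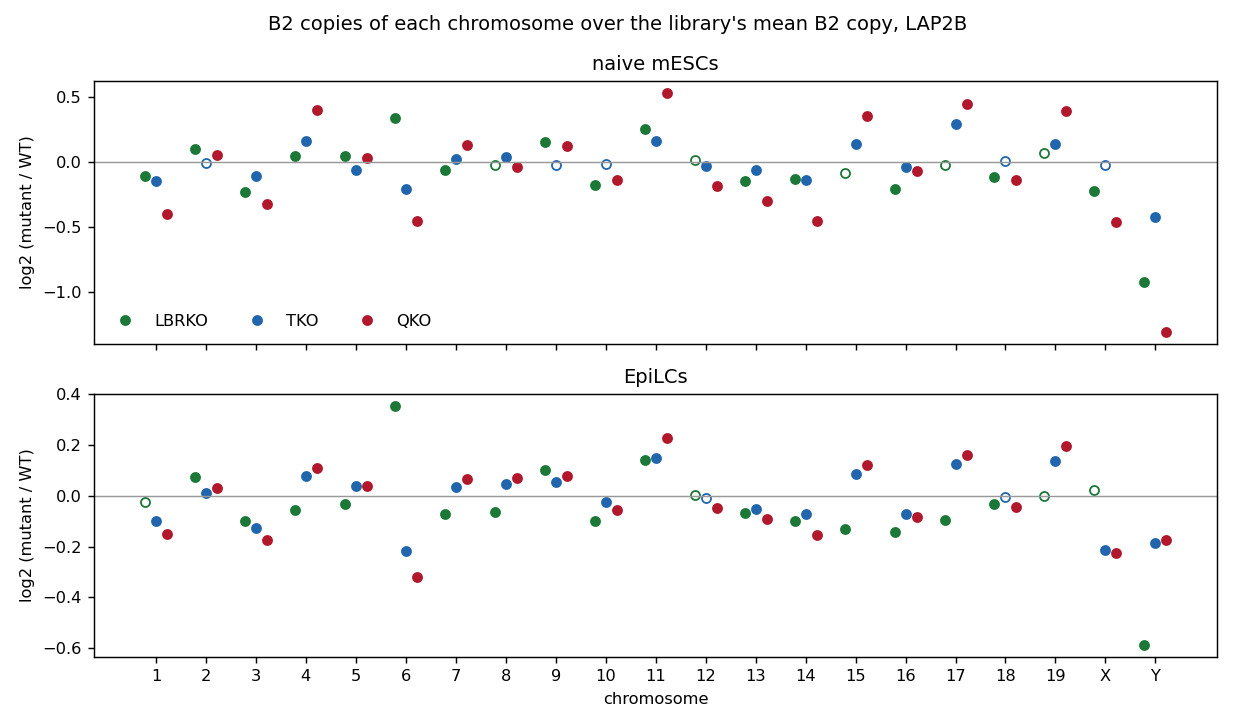
Log2 ratio of mutant to WT (y axes) of the mean B2 copy of each chromosome (x axis) over the mean of all B2 copies of the library, for LAP2B in naive mESCs (top) and EpiLCs (bottom), with 1 point per mutant as a ratio of group means, filled where mutant and WT libraries were apart and open where they overlapped. Chromosome 11 is at 0.53 in naive QKO, chromosome 6 at 0.34 in LBRKO and -0.45 in QKO, and Y at -1.31 in QKO and -0.92 in LBRKO.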

How the data were processed

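Libraries were CUT&RUN of LAP2B (24), LMNB1 (6) and IGG (6); 2 H3K9me3 samples were not analysed here. Per the methods, the authors aligned reads to mm39 with Bowtie2 (2.3.5.1), kept properly paired primary alignments without duplicates with SAMtools (1.10) and wrote coverage with deepTools, scaled by yeast spike-in reads. The submitters' processing notes name mm39 and sacCer3. A filter on mapping quality is not given in the sources used here. The deposited values are this spike-in-scaled RPKM signal per TE copy, summed over the bins it touches. The methods name bins of 10 kb for TEs, but 4987 of 11643 genes that lie in 1 bin of 1 kb had reads equal to those of a TE copy in all libraries, so 1 kb was used. At least 99.9997% of values were within 0.05 of a whole number of steps per library, which gave whole reads.

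Family values were means over copies. limma (3.58.1, R 4.3.3, trend) was fitted over all 1241 families or over the 3414047 copies left after the lowest 0.1 were removed, with pseudocounts of 0.1 of the median family or 0.5 of the median copy and Benjamini-Hochberg adjustment at 0.05. All 24 LAP2B libraries entered 1 model, and the 6 LMNB1 and 6 IGG libraries 1 each. The LAP2B, LMNB1 and IGG tables were scaled apart, so levels set across them are not tested. Measures with 1 value per library were compared by exact permutation tests, adjusted over the 3 mutants, which left pairwise adjusted p at 0.1 or more. The copies named are the 2 with the largest rise and the 2 with the largest fall in QKO among those called, not overlapping between groups and past the filter, 1 per distinct set of values. Chi-square per degree of freedom between replicates over B2 reads was 2.17 to 2.70 in 36 pairs, and no libraries were merged. Sequencing was paired-end and both mates of a pair may be counted, so the part of this above sampling noise is not known. Alternatives included the spike-in factor applied to whole reads in place of RPKM, with reads summed over TE copies as the library size. Others were other pseudocounts, filters, denominators, edgeR (4.0.16) on the whole reads and leaving out each replicate. Bins were searched in the mm39 reference and elements found with blastn (2.17.0). Of these steps, limma and edgeR on families were tested on simulated data, and the others were not. The simulated noise was drawn apart for each family, for limma on the relative scale and for edgeR with plain library sizes. It therefore did not cover the spike-in fits, where the factor of a library moves all families together. Members and lists were chosen with earlier results of these data known.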

Additional observations from a re-analysis of the deposited data

Results flagged for a closer look

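The change of B2 subfamilies from WT to a mutant differed between the stages, by the interaction term in limma on the relative scale, given here as EpiLC minus naive on the log2 scale. For the QKO change it was -0.75 for B2_Mm1a, -0.67 for B2_Mm1t, -0.60 for B2_Mm2, -0.33 for B3A and -0.44 for B3. For the LBRKO change it was -0.39 for B2_Mm1a, -0.36 for B2_Mm1t, -0.31 for B2_Mm2, -0.18 for B3A and -0.23 for B3. For the TKO change it was -0.22 for B2_Mm1a, -0.20 for B2_Mm1t and -0.16 for B2_Mm2. All 13 were smaller rises in EpiLCs than in naive mESCs, and WT itself was higher in EpiLCs in all 5 subfamilies. With the median over copies as the family's value, 0 of the 5 were called for LBRKO and 0 for TKO, and B3A lost its call for QKO. Other SINE families differed in the same direction for QKO, with 15 of 15 B1 families called and a median of -0.58. Dividing by the mean of all TE copies in place of the median family left the median B2 difference at -0.41 for QKO and -0.093 for TKO, with 1 subfamily called for TKO, and without naive WT replicate 2 none was called for TKO.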

How the results depend on the processing

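On the relative scale, the 5 B2 subfamilies stayed called higher in every naive mutant and in EpiLC LBRKO and QKO under each alternative and without each library. With the median over copies as family value, 1 subfamily was called in EpiLC TKO, 2 in the WT stage change, and 0 in the stage difference of LBRKO and of TKO; dividing by the mean of all TE copies called 1 in the latter and turned its B3A value to 0.017. With only the groups compared in the fit, 5 subfamilies were called in EpiLC QKO against TKO, 1 in the WT stage change and, on the spike-in scale, 3 in naive TKO and 2 in EpiLC QKO against TKO. The share of all families called was counted in the main fits and by edgeR alone, so the other counts have none beside them. On the spike-in scale naive QKO against TKO, with none called, had 1 called with a pseudocount of 0.01, 2 with the median over copies and 1 by edgeR. Without 1 library at a time the called subfamilies ranged from 3 to 5 in naive TKO, 0 to 1 in naive QKO against TKO, 0 to 2 in EpiLC TKO and 0 to 5 in EpiLC QKO against TKO on the spike-in scale, and 0 to 3 in the TKO stage difference. Values that were not called changed sign without 1 library on the spike-in scale. They ranged from -0.23 to 0.067 (B2_Mm1a) and from -0.29 to 0.00029 (B2_Mm1t) in naive QKO against TKO, above 0 without TKO replicate 2. B3A in EpiLC LBRKO ranged from -0.047 to 0.20, below 0 without WT replicate 2, and B2_Mm1a in EpiLC TKO from -0.35 to 0.022, above 0 without TKO replicate 3. With equal weight per subfamily, the ratio of B2 to B1 had an exact permutation p = 0.128 in naive mESCs and turned to 0.0095 in EpiLC TKO and 0.0079 in EpiLC QKO against WT. Its EpiLC p ranged from 0.0418 to 0.233 without 1 library.

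Counts of called copies, without 1 library at a time, ranged from 47391 to 64839 higher and 7642 to 11395 lower in naive LBRKO, and 15828 to 30496 higher and 1635 to 5089 lower in naive TKO. They ranged from 2864 to 12259 higher and 234 to 1119 lower in EpiLC QKO, 4440 to 9783 in EpiLC LBRKO, 75 to 1234 in EpiLC TKO, and 8390 to 15022 higher in naive QKO on the spike-in scale. A pseudocount of 0.1 gave 8123 higher and 666 lower in EpiLC QKO and 292 in EpiLC TKO, and the mean of all TE copies gave 7600 lower in naive TKO. These counts have no share of all TE copies beside them, because only B2 copies were counted in these fits. With the spike-in factor on whole reads, the naive B2 level of QKO lay above that of TKO (-2.34 against -2.47), and below it as deposited (-1.97 against -1.63). The cause was not tested. The labels give same-numbered libraries no shared source, their deviations from the group means correlated from -0.31 to 0.17 over families, and 4 of 18 mutant libraries correlated best with the WT library of their number, so the samples share only a number. With the replicate number as a block 139817 B2 copies were called higher and 35282 lower in naive QKO; no call of a subfamily changed. The difference of each mutant from WT in the lamina contrast kept its direction, and its p over genotypes its call, in naive mESCs with classes from LMNB1 over IGG, from the other stage, over 10 classes and over windows, but the QKO contrast itself ranged from -1.53 (windows by LMNB1 over IGG) to 0.49 (classes from the other stage). Windows, chromosomes left out, edgeR and the ratios of B2_Mm1a to B3A and of copies beside L1 to those beside B1 were chosen after seeing the data. A median of 8 to 24 reads per copy limits single copies more than subfamilies.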
